A study of Mus musculus with 8 samples.

Results

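DNA methylation at 4 genes of fibrotic signalling, Tgfb1, Smad3, Smad7 and Rasal1, was followed in the kidney cortex and outer medulla of mice by reduced representation bisulfite sequencing (RRBS), which reads the CpG-rich ends of DNA fragments cut by the enzyme MspI. The CpG positions were those of fixed mm9 intervals around each gene: chr7:26466001-26495000 for Tgfb1, chr9:63488001-63611000 for Smad3, chr18:75520001-75562000 for Smad7 and chr5:121093001-121135000 for Rasal1. A position was kept with at least 10 reads in every library, and the methylation level is the share of reads that were methylated. The intervals held 615 such positions of 976938 in the whole series. Neighbouring positions no more than 200 bp apart were joined into 65 clusters, out of 134007 in the series, and the 51 clusters with at least 3 positions were tested among 93019. Tgfb1 had 7 clusters, all tested, while 21 of 27 were tested in Smad3, 11 of 16 in Smad7 and 12 of 15 in Rasal1.

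All mice were male, wild type C57BL/6J, and their age is not given in the labels. In unilateral ureter obstruction (UUO) the left ureter was tied and cut, and the kidney was taken after 7 days (2 libraries). The same operation was combined with intraperitoneal 5AZA in saline at 1 mg/kg per day in a second group (UUO 5AZA, 2 libraries), 5AZA being a cytidine analogue that inhibits DNA methyltransferases. The labels give no saline injection for the UUO mice. Bilateral clamping of the renal pedicles for 25 minutes was followed by 1 week or 1 month of reperfusion (ischemia, 1 library each), and each surgical series had its own sham operation (UUO sham and ischemia sham, 1 library each). Whether the libraries of 1 group stem from different animals is not stated in the labels, so the SDs and p-values measure the spread between libraries, which may be technical. Kidney tissue holds many cell types, and a change in their proportions cannot be told apart from a change within a cell. The labelled tissue was not checked against markers, since only methylation was measured. Read totals ran from 57853745 to 86411736 per library, counted over CpG positions, and the median position held 33 to 48 reads.

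Tgfb1 encodes TGF-beta 1, a secreted ligand that is stored in the matrix in a latent form and, once released, binds a pair of receptor kinases at the cell surface. The receptors phosphorylate Smad3, which enters the nucleus with Smad4 and switches on genes of the extracellular matrix, while Smad7 is induced by the same signal and blocks the receptors. Rasal1 encodes a GTPase-activating protein that turns Ras off, and methylation of its promoter in fibroblasts has been described in kidney fibrosis.

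The promoters of Tgfb1 and Smad3 are shown because they are where methylation would be read as promoter silencing, and because they show which CpGs the assay could measure. The 250 bases before each gene start are given 5′ to 3′ on the gene's own strand, from RefSeq on GRCm38.p6 (chr7:25686752-25687001, plus strand, for Tgfb1 and chr9:63757995-63758244, minus strand, for Smad3). Capitals mark the CG dinucleotides that were measured with at least 10 reads in every library.
Tgfb1: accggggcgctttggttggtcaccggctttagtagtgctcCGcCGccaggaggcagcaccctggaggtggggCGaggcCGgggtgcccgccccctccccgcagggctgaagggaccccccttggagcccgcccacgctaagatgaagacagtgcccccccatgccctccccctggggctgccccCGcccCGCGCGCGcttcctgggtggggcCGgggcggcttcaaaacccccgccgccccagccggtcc
Smad3: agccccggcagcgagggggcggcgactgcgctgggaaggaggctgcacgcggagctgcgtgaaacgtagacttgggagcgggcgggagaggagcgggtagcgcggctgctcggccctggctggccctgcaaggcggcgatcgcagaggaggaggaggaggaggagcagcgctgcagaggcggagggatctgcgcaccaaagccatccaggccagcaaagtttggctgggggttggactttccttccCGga
The pattern of CGs placed these promoters at mm9 chr7:26471771-26472070 and chr9:63605752-63606051, both spans with the first 50 bases of the gene included. The rule allowed only offsets with 0 covered positions off a CG. In Tgfb1, 23 covered positions fell on the 30 CGs, against 6 at the next best allowed offset. In Smad3, 21 fell on the 25 CGs, against 4. Smad7 and Rasal1 are named here without a promoter sequence.

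Both promoters were nearly unmethylated at every measured CpG outside the sites that MspI cuts. In the Tgfb1 promoter 11 positions were measured. The 9 that are not part of an MspI site had levels of 0.0% to 4.65% over the reads of all 8 libraries together, and the 4 CGs from 61 to 55 bases before the start, the longest run of capitals in the sequence above, lay at 1.65% or below. The MspI positions of Tgfb1, 172 and 38 bases before the start, read 58.16% and 83.54%. In Smad3 the single measured CG before the start, 4 bases upstream and inside an MspI site, read 80.13%, whereas the 3 positions 2, 22 and 26 bases downstream read 2.13%, 0.49% and 0.65%. In the 250 bases before the start both promoters hold GC boxes (GGGCGG, either strand), the motif bound by Sp1-type factors, 5 in Tgfb1 and 2 in Smad3. At least 1 is present in the same stretch of 32.7% of 32851 mouse promoters. MspI sites (CCGG) numbered 5 and 2, with 47.1% of promoters holding any. The letters GTCTAGAC, CAGACA and TATAAA occur in neither of these 250-base stretches on either strand, and are found in 0.2%, 17.1% and 12.4% of promoters.

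**Figure D1:**
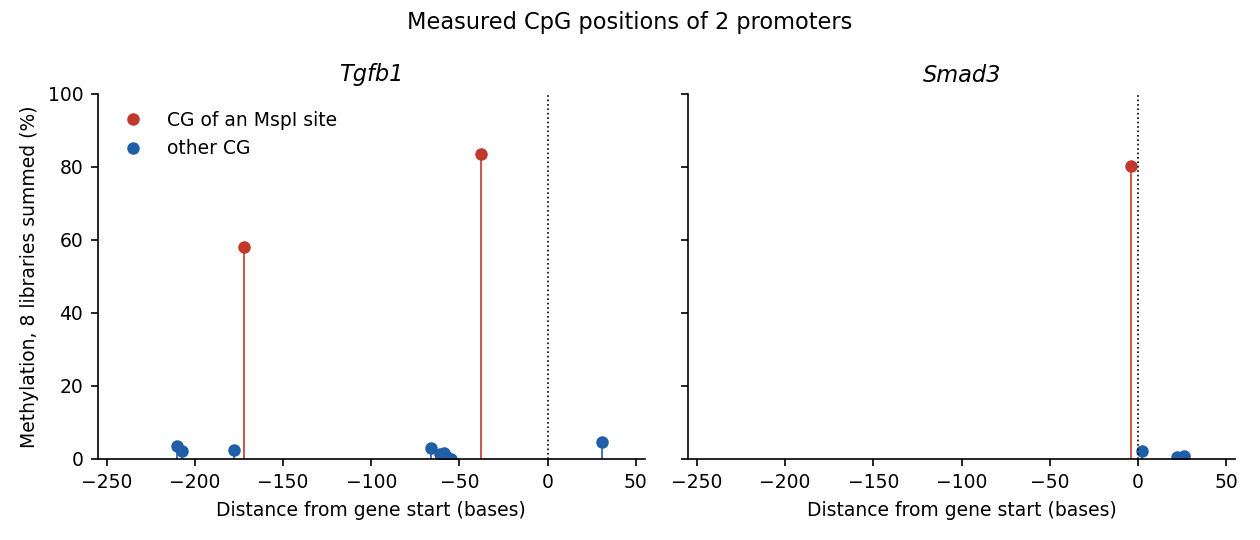
Methylation level (%, reads of the 8 libraries summed) of each measured CpG against its distance from the gene start in bases, for Tgfb1 and Smad3. Red points are CGs of MspI sites (58.16%, 83.54% and 80.13%) and blue points other CGs, all at or below 4.65%.

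The same contrast was present in 43 placed promoters of 37 genes, made up of these genes and the pathway lists described further on. There, 103 CCGG positions had a median level of 73.12% (35.32% to 90.26%) and 529 other positions a median of 1.31% (0.0% to 37.57%), each position counted once where promoters overlap. Per the labels' protocol, the cut ends were repaired with a nucleotide mix containing methylated dCTP, and the part of that step in the high levels was not tested. All 103 CCGG positions lay at fragment edges. Edges were found without using methylation: a position was one when read depth changed by more than 10% to the next CpG, or when a neighbour was missing on 1 side within 250 bp. Levels are therefore given below both over all positions of a cluster and over the positions inside fragments.

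Each gene had 1 CpG-dense stretch that was nearly unmethylated inside fragments in all 8 libraries. In Tgfb1 it comprised clusters 1 to 4, from the promoter to 2751 bases downstream of the start (chr7:26471811-26474772), with 27 inner positions. In Smad3 it comprised clusters 23 to 25 around the gene start (chr9:63604977-63606286), with 37 inner positions. In Smad7 it comprised clusters 3 to 6 (chr18:75526202-75530277), with 91 inner positions, and in Rasal1 it was cluster 3 (chr5:121098717-121099698), with 21.

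For Tgfb1 the inner level was 1.2% in the UUO sham, 1.45% and 1.63% in UUO, 1.45% and 1.86% in UUO 5AZA, 0.54% in the ischemia sham, 0.35% at 1 week and 0.99% at 1 month. The Smad3 stretch, which holds the start of the gene for the transducing Smad, read 1.55% in the UUO sham, 1.29% and 1.56% in UUO, 1.26% and 1.60% in UUO 5AZA, 0.71% in the ischemia sham, 0.50% at 1 week and 0.55% at 1 month. Smad7, the inhibitor, read 2.06% in the UUO sham, 1.48% and 1.71% in UUO, 2.43% and 2.27% in UUO 5AZA, 0.92% in the ischemia sham, 0.68% at 1 week and 0.43% at 1 month. In these 3 genes the 3 ischemia-series libraries were all below the 5 libraries of the UUO series, and surgical series and library preparation cannot be told apart here.

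Rasal1 read 3.18% in the UUO sham, with a 95% exact binomial interval of 2.38% to 4.15%. Its UUO libraries read 3.21% and 2.22%, its UUO 5AZA libraries 2.92% and 3.41%, and its ischemia libraries 2.34% (sham), 1.85% (1 week) and 2.16% (1 month). Obstructed and sham kidneys thus overlapped in the Rasal1 stretch, and 19 of its 21 inner positions were below 10% over all reads. The other 2 lay near the ends of the cluster, at base 121098752 (13.32%, 5.81% to 20.59% between libraries) and base 121099664 (18.11%, 6.25% to 25.49%, from as few as 16 reads). Intervals cover counting error only, since a read can cover several positions and PCR copies were not told apart.

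**Figure D2:**
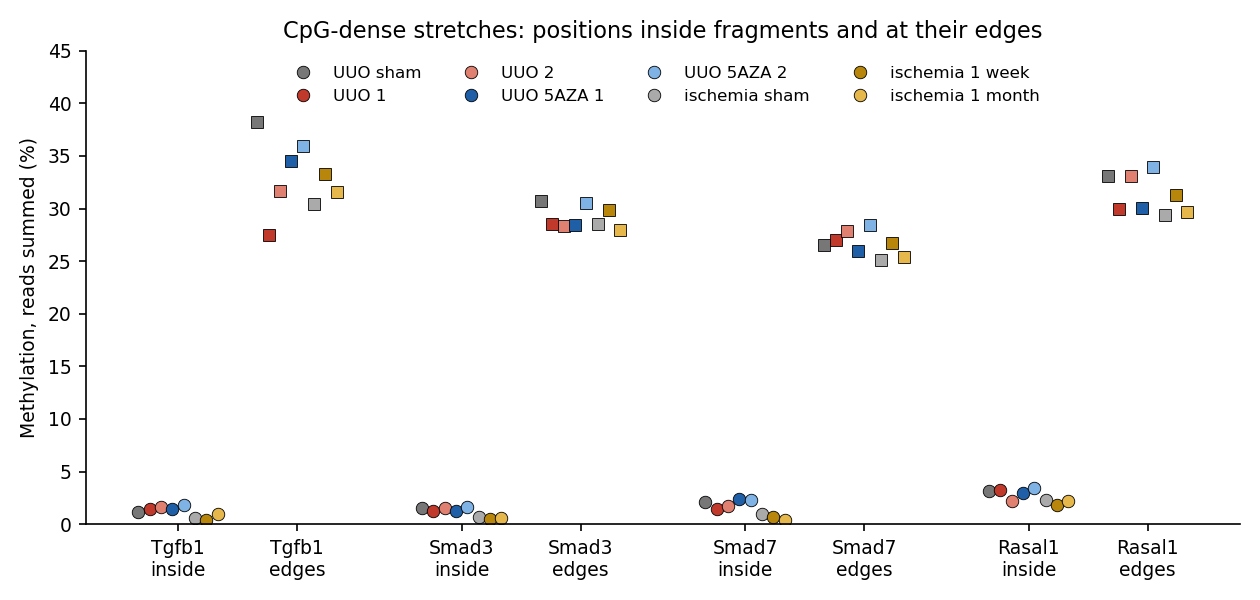
Methylation level (%, reads summed) of the CpG-dense stretch of each gene in each of the 8 libraries, with circles for positions inside fragments and squares for positions at fragment edges. Inside fragments every library lies between 0.35% and 3.41%, while edge positions lie between 25.1% and 38.24%.

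Outside these stretches most of the genes' clusters were methylated at intermediate to high levels. An exception was the single edge position of Smad7 cluster 13 (base 75545782, from as few as 15 reads), which read 0.0% in the UUO sham, 25.0% and 33.33% in UUO, 12.5% and 0.0% in UUO 5AZA, 5.41% in the ischemia sham, 2.13% at 1 week and 11.11% at 1 month and was too short to be tested. In Smad3 the clusters other than 14 and 23 to 25 read between 38.60% and 100% in every library. Cluster 14, 51.5 kb downstream of the start (chr9:63554279-63554374), read 34.70% to 40.66%, but its positions inside fragments were below 10% in every library, as in 12 clusters of the dense stretches. The other tested clusters read 29.23% to 91.26% in Rasal1 except for cluster 6, which reached 95.83%, and 44.14% to 89.22% in Smad7.

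**Figure D3:**
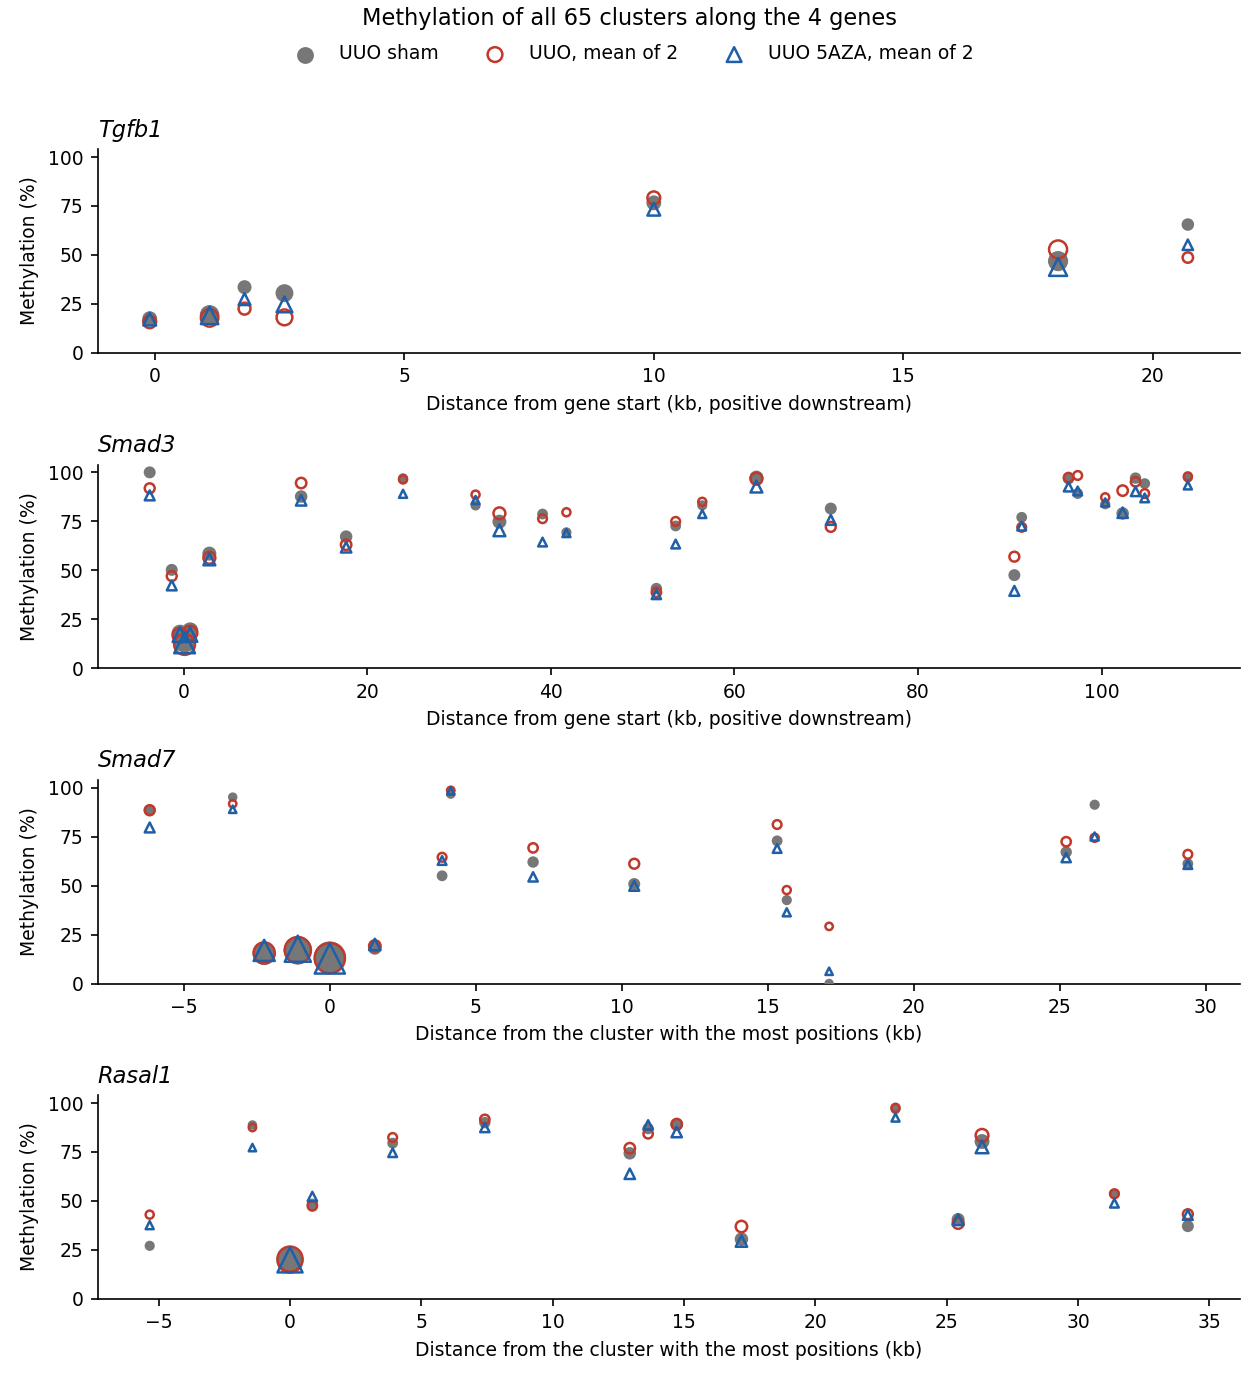
Methylation level (%) of all 65 clusters against distance in kb, from the gene start in Tgfb1 and Smad3 and from the cluster with the most positions in Smad7 and Rasal1. Grey discs are the UUO sham, open circles the mean of 2 UUO libraries and triangles the mean of 2 UUO 5AZA libraries, with larger symbols for clusters of more positions, and the dense stretches form the low points near 0 kb.

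The first question was whether 7 days of obstruction changed methylation at these genes. Clusters were tested with a quasi-binomial model of moderated dispersion, on the summed reads of a group's libraries. Printed differences are between means of library levels. Where the libraries of a pair differ in depth, the p-value and SE follow the deeper library more than the printed difference does. A call needed an adjusted p below 0.05 together with group means 10 or more percentage points apart. In UUO against the UUO sham 17 of 93019 clusters were called, 0.0183%, and 0 of the 51 clusters of the 4 genes. At an unadjusted p below 0.05 there were 10 of the 51 (6 higher and 4 lower in UUO), against 8.19% of all clusters. The edgeR and limma tests called 0 of the 51 too. In every comparison at least 1 alternative setting or test called 0 of all clusters, so such a 0 need not be particular to these genes. The median difference was 0.10 points over the 51 clusters and 0.45 over all. Both UUO libraries were above the sham in 20 of the 51 clusters (39.2%, against 42.2% of all) and below it in 18 (35.3%, against 28.1%).

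The second question was whether 5AZA altered the methylation of the obstructed kidney. The same 2 UUO libraries served here and against the UUO sham. A high UUO level thus raises the obstruction difference and lowers the 5AZA difference together. In UUO 5AZA against UUO 930 clusters were called in the series, 1.0%, of which 924 were lower, and 0 of the 51. At an adjusted p below 0.05 without the 10-point minimum, 3 of the 51 passed, all lower with 5AZA, against 2.1% of all clusters. Levels were lower with 5AZA in 36 of the 51 clusters (70.6%, against 80.5% of all), and the 2 pairs of libraries did not overlap, with 5AZA below, in 27 (52.9%, against 50.5%). The median difference was -4.00 points, against -2.91 over all clusters. It was 0.77 over the 13 clusters whose positions inside fragments were below 10% in every library and -5.09 over the other 38. Of those 38, the 27 with positions inside fragments had a median of -5.81 points and the 11 made of edge positions alone -1.65.

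The reperfusion libraries were compared with the ischemia sham, 1 library against 1, on the assumption that each varies like the UUO and 5AZA pairs. At 1 week 0 of 93019 clusters were called, 0.0%, so 0 of the 51, and 5 of the 51 had an unadjusted p below 0.05, all lower and all in Smad3, against 4.22% of all clusters. At 1 month 0 were called, 0.0%, and 2 of the 51 had an unadjusted p below 0.05, against 4.85%. The median differences were -0.55 points at 1 week and 0.19 at 1 month, with -0.52 and -0.16 over all clusters. The edgeR and limma tests called 0 of the 51 at either time, with the limit given for obstruction.

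The UUO sham and the ischemia sham, which differ in the sham operation and the surgical series, gave a yardstick. There 3 clusters were called in the series, 0.00323%, and 0 of the 51, with 3 of the 51 at an unadjusted p below 0.05, against 5.77% of all. The UUO sham was higher in 39 of the 51 clusters (76.5%, against 61.1% of all), among them 7 of 7 in Tgfb1 and 11 of 11 in Smad7, with a median of 1.63 points against 0.82. The difference between the obstruction effect and the effect of ischemia at 1 week was tested directly and gave 0 calls, 0.0%, and 8 of the 51 at an unadjusted p below 0.05, against 6.18% of all clusters. The edgeR and limma tests called 0 of the 51 in either comparison, with the same limit.

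**Figure D4:**
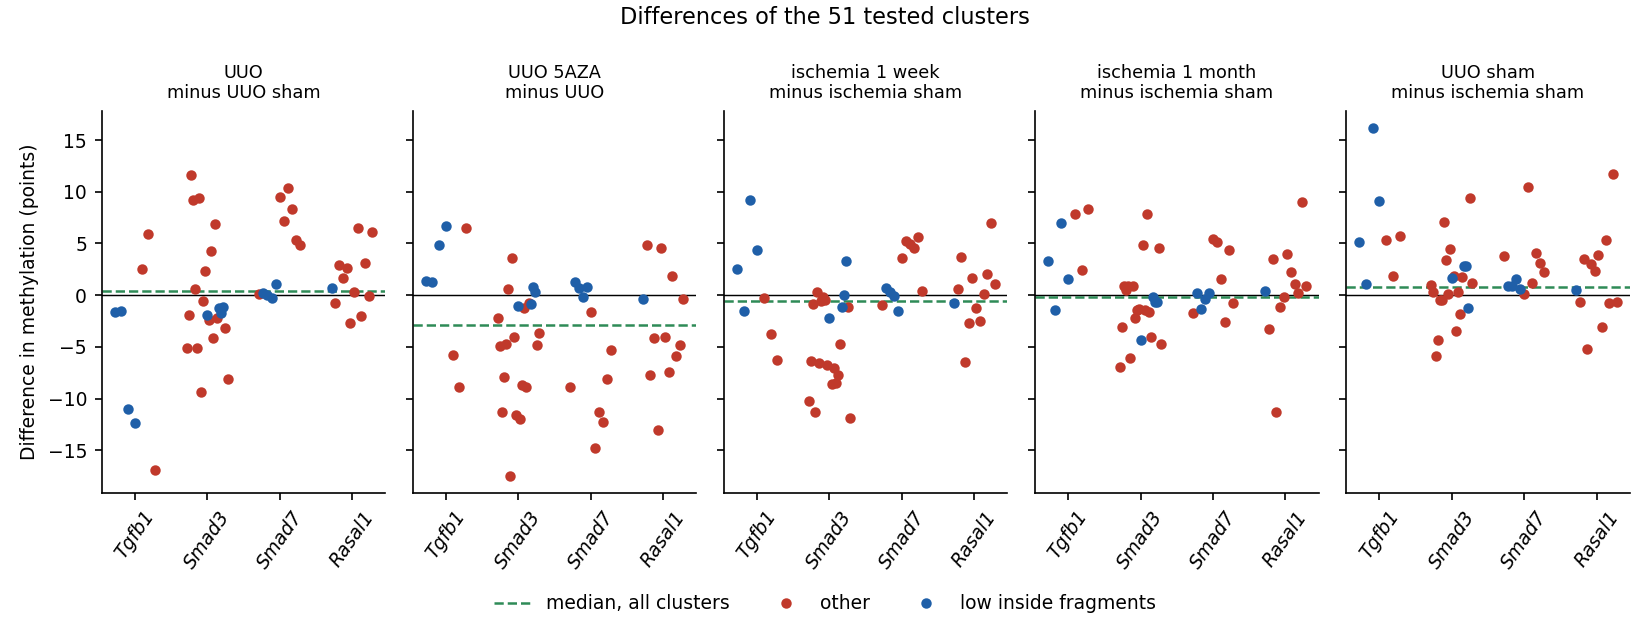
Difference in methylation (percentage points) of each of the 51 tested clusters, by gene, in 5 comparisons, with blue points for the 13 clusters that are low inside fragments, red points for the other 38 and a dashed line at the median of all 93019 clusters. In UUO 5AZA minus UUO the red points lie mostly below 0 (median -5.09) and the blue points near or above it (median 0.77).

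For the ligand gene Tgfb1, the cluster with the clearest difference lay 18.1 kb downstream of the start. Cluster 6 (chr7:26489831-26490333, 26 positions, 1435 to 2525 reads per library) read 46.85% in the UUO sham, 52.83% and 52.76% in UUO, 43.35% and 44.46% in UUO 5AZA, 45.01% in the ischemia sham, 41.30% at 1 week and 47.46% at 1 month. Both UUO libraries were the highest of the 8, and both 5AZA libraries were below the UUO sham. With 5AZA the level fell by 8.89 points (SE 1.27, adjusted p = 0.0174 by the quasi-binomial test), which is below the 10-point minimum of a call. The obstruction difference was 5.95 points (SE 1.58, unadjusted p = 0.00294) and did not pass adjustment.

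Over the 15 positions of Tgfb1 cluster 6 that lie inside fragments, both differences were larger. The level there was 31.44% in the UUO sham (95% interval 28.41% to 34.59%), 42.14% and 40.27% in UUO (mean 41.2% ± 1.32, SD, n = 2) and 30.24% and 29.85% in UUO 5AZA (mean 30.04% ± 0.27, SD, n = 2). The 5AZA difference was -11.16 points (SE 1.91, adjusted p = 0.00793 by the quasi-binomial test over 31510 clusters), and the cluster was called. With obstruction it was 9.77 points higher (SE 2.42, adjusted p = 0.111), which missed the threshold. At 14 of the 15 positions both UUO libraries were above the sham, and at 14 both 5AZA libraries were below both UUO libraries, although neighbouring positions share reads.

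The same 15 positions read 24.83% in the ischemia sham (21.76% to 28.11%), 25.35% at 1 week (22.99% to 27.83%) and 34.84% at 1 month (32.28% to 37.48%). The 1 month library was 10.01 points above the sham (SE 2.75, unadjusted p = 0.0023, adjusted p = 0.41), and the 1 week library 0.52 points above it (SE 2.67). The shams differed by 6.61 points here (SE 2.96, unadjusted p = 0.0402), and the UUO sham lay above the ischemia sham, the 1 week library and both 5AZA libraries.

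Inside fragments 2 of the 27 tested clusters of the 4 genes were called in UUO 5AZA against UUO, both lower, and 366 of 31510 in the series, 1.16%. Of the 14 clusters with a mean level of at least 10%, 13 were lower with 5AZA (92.9%, against 90.3% of all such clusters), with a median of -6.23 points against -5.60. In UUO against the UUO sham 0 of the 27 were called, and 0.244% in the series, and 4 of the 27 had an unadjusted p below 0.05, against 8.39% of all. The ischemia comparisons called 0 of the 27, with 0.0% called in the series at 1 week and 0.0317% at 1 month, and 1 and 4 of the 27 at an unadjusted p below 0.05, against 5.01% and 6.48% of all. Between the shams 0 of the 27 were called and 0.0159% in the series.

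The largest obstruction differences of Tgfb1 in its dense stretch differed between all positions and those inside fragments. Clusters 3 and 4, in the dense stretch 1.8 and 2.6 kb downstream, had obstruction differences of -10.98 points (SE 5.63, unadjusted p = 0.0189) and -12.38 points (SE 3.26, unadjusted p = 0.0012). Cluster 3 (chr7:26473660-26473912) read 33.55% in the UUO sham, 13.86% and 31.27% in UUO and 23.60% and 31.31% in UUO 5AZA. Cluster 4 (chr7:26474396-26474772) read 30.49% in the UUO sham, 14.38% and 21.85% in UUO and 23.27% and 26.25% in UUO 5AZA. UUO library 1 was the lowest of the 8 in both clusters, and the share of its reads at edge positions was also the lowest, 52.2% and 51.5%, against 69.1% and 71.5% in the UUO sham. Inside fragments cluster 4 differed by 0.09 points between UUO and its sham, with levels of 0.23% to 3.01% in the 8 libraries. The part of the edge share in the difference over all positions was not tested.

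With UUO library 2 left out, the comparison rested on 1 library against 1, assumed to vary like the 5AZA pair (1 residual degree of freedom). Clusters 3 and 4 of Tgfb1 then differed by -19.69 and -16.11 points with obstruction and by 13.60 and 10.38 points with 5AZA. UUO library 2 itself read 31.27% and 21.85%, nearer to the UUO sham at 33.55% and 30.49%. In cluster 3 it lay above the 5AZA mean of 27.45%, so the 5AZA difference has the other sign with library 1 left out. With positions weighted equally, cluster 4 read 16.98% in the UUO sham and 15.25% and 16.70% in UUO. In the ischemia series cluster 3 read 17.40% in the sham, 26.60% at 1 week and 24.42% at 1 month, and its shams differed by 16.15 points. The 1 week difference of 9.2 points in cluster 3, the sham difference and the -20.19 points between the obstruction and the 1 week effect all changed sign with positions weighted equally. Cluster 4 read 21.35% in the ischemia sham, 25.75% at 1 week and 22.91% at 1 month, and had a difference of -16.78 points between those effects and of 9.15 points between the shams.

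Cluster 7 of Tgfb1, 20.7 kb downstream (chr7:26492656-26492733), consists of 6 edge positions. It read 65.53% in the UUO sham, 50.38% and 46.96% in UUO, 54.79% and 55.60% in UUO 5AZA, 59.80% in the ischemia sham, 53.54% at 1 week and 68.10% at 1 month. Obstruction gave -16.86 points (SE 3.94, unadjusted p = 0.00133), which did not pass adjustment. Reperfusion gave -6.26 points at 1 week and 8.30 at 1 month. Cluster 5, 10.0 kb downstream (chr7:26481862-26482260), read 71.01% to 79.46% and was 7.86 points above the sham at 1 month (unadjusted p = 0.0291). The promoter cluster 1 differed by -1.61 points with obstruction and 1.38 with 5AZA, and cluster 2 by -1.57 and 1.31.

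**Figure D5:**
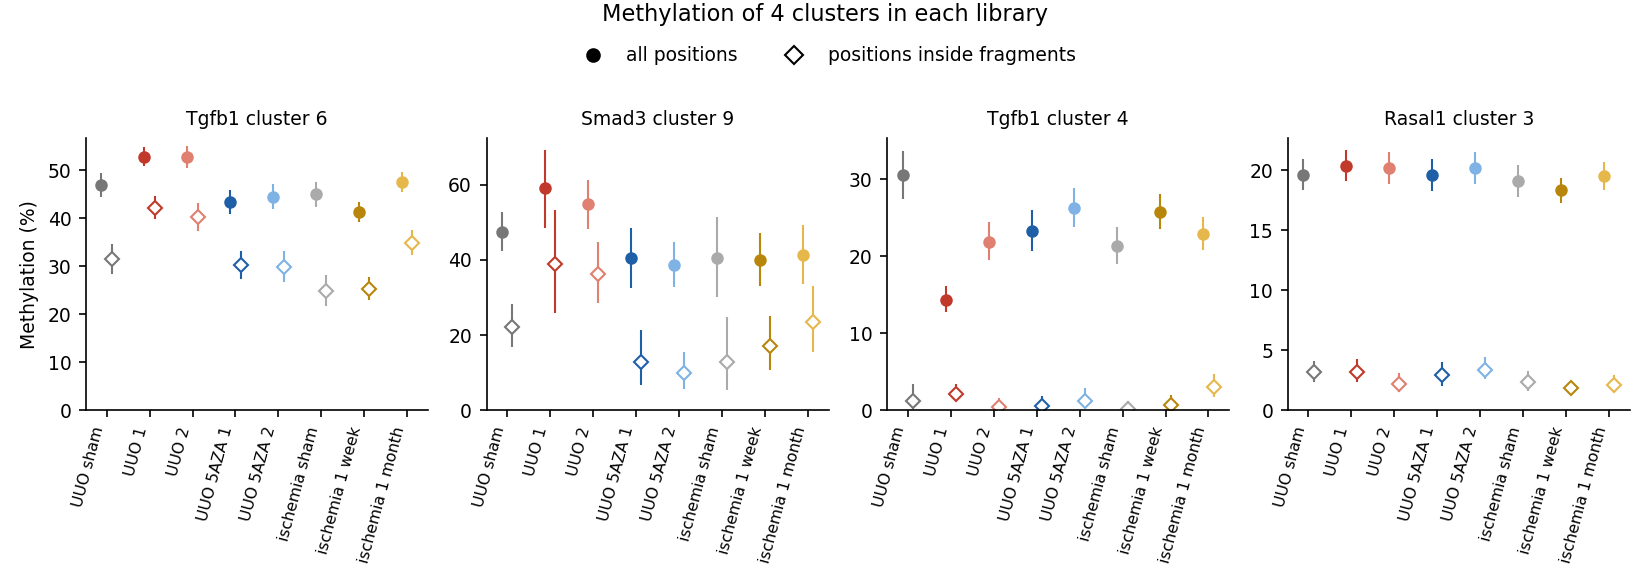
Methylation level (%) of 4 clusters in each library with 95% exact binomial intervals, for all positions (filled circles) and for positions inside fragments (open diamonds). In Tgfb1 cluster 6 both UUO libraries are the highest by either measure, in Tgfb1 cluster 4 the low UUO library 1 is not low inside fragments, and in Rasal1 cluster 3 the 8 libraries lie within 18.34% to 20.40%.

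In Smad3, the transducer of the signal, the cluster at the start and with the most positions showed no difference of more than 3 points. Cluster 24 (chr9:63605541-63605804, 36 positions) read 13.88% in the UUO sham, 12.04% and 12.23% in UUO and 12.22% and 13.67% in UUO 5AZA. The 5AZA difference was 0.81 points and the obstruction difference -1.74. The UUO sham lay 2.85 points above the ischemia sham (unadjusted p = 0.0149 by the quasi-binomial test), which did not pass adjustment. The larger differences of this gene lay away from the start.

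Smad3 cluster 9, 90.5 kb downstream (chr9:63515159-63515373, 5 positions), read 47.51% in the UUO sham, 59.14% and 54.73% in UUO (mean 56.94% ± 3.12, SD, n = 2), 40.38% and 38.60% in UUO 5AZA (mean 39.49% ± 1.26, SD, n = 2), 40.45% in the ischemia sham, 39.90% at 1 week and 41.36% at 1 month. UUO was highest and UUO 5AZA as low as the ischemia series. The 5AZA difference of -17.44 points (SE 3.92, adjusted p = 0.0524 by the quasi-binomial test) just missed the threshold, and the obstruction difference was 9.42 points (SE 4.11, unadjusted p = 0.0642).

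The 3 positions of Smad3 cluster 9 inside fragments, with 54 to 216 reads per library, read 22.22% in the UUO sham (16.86% to 28.36%), 38.89% and 36.30% in UUO and 12.90% and 9.82% in UUO 5AZA. This was the second call over inner positions, with a 5AZA difference of -26.24 points (SE 5.23, adjusted p = 0.0216 by the quasi-binomial test). At all 3 positions both 5AZA libraries were below both UUO libraries, and both UUO libraries were above the sham. The obstruction difference of 15.37 points had an adjusted p of 0.467. The ischemia libraries read 12.96% (sham), 17.09% (1 week) and 23.47% (1 month), with overlapping intervals. In both called clusters the UUO libraries were the highest of the 8, and both UUO 5AZA libraries were below the UUO sham. The clusters were called for UUO lying above UUO 5AZA, so this order is partly set by that choice and is not separate support.

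Smad3 clusters 17 and 21 had an adjusted p below 0.05 with 5AZA but a difference below 10 points. Cluster 17, 34.4 kb downstream (chr9:63571195-63571524), read 74.82% in the UUO sham, 79.10% and 79.05% in UUO and 70.75% and 70.11% in UUO 5AZA, a difference of -8.65 points (SE 1.81, adjusted p = 0.0418 by the quasi-binomial test). Cluster 21, 12.8 kb downstream (chr9:63592814-63593112), read 87.66% in the UUO sham, 94.20% and 94.90% in UUO and 88.07% and 83.33% in UUO 5AZA, a difference of -8.84 points (SE 1.83, adjusted p = 0.0417 by the same test). In both clusters the UUO libraries lay above the other 6, which is partly set by picking the clusters on their 5AZA difference. The differences at 1 week from the ischemia sham were -7.04 and -7.68 points (unadjusted p = 0.0174 and 0.02). The contrast of the obstruction effect with the 1 week effect in cluster 21 was 14.57 points (unadjusted p = 0.000821) and did not pass adjustment.

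The other Smad3 clusters with large differences were short. Cluster 4 (chr9:63503393-63503542) read 79.03% in the UUO sham, 91.76% and 89.61% in UUO and 81.36% and 77.42% in UUO 5AZA, so that obstruction gave 11.65 points (SE 3.62, unadjusted p = 0.00421) and 5AZA -11.29 (SE 2.88, unadjusted p = 0.00256). Cluster 6 (chr9:63508293-63508422) read 89.19% in the UUO sham and 98.10% and 98.69% in UUO, and it read 93.53% in the ischemia sham and 82.26% at 1 week, with a contrast between the obstruction and 1 week effects of 20.48 points (unadjusted p = 0.000541). Cluster 16, made of 3 edge positions, had a 5AZA difference of -11.94 points between unlike libraries (59.74% and 69.09%, against 74.32% and 78.38% in UUO).

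Cluster 27 of Smad3, 3.7 kb upstream of the start (chr9:63609444-63609571), was fully methylated in the UUO sham (100%, 95% interval 97.55% to 100%) and nearly so in the ischemia sham (98.82%, 95.79% to 99.86%). The 6 libraries of injured kidneys read 86.61% to 94.10%, below both shams. With the shams at or near 100%, other libraries could hardly lie above them. Both UUO libraries were below their sham in 28.1% of all clusters, and the share with all 6 libraries below both shams was not counted. The differences were -8.13 points with obstruction (SE 1.26, unadjusted p = 0.0011) and -11.84 at 1 week (SE 2.45, unadjusted p = 0.000844), neither of which passed adjustment. At 100% the UUO sham adds no variance to the first SE, which therefore leaves out the uncertainty of that library. Cluster 2 differed by -10.19 points at 1 week and -6.97 at 1 month, cluster 20 by 7.86 at 1 month, and cluster 26 by 9.41 between the shams.

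In Smad7, the inhibitory Smad, the dense stretch carried most of the measured positions, and its 4 clusters showed small differences with obstruction, 5AZA and reperfusion, the widest being -1.49 points in cluster 6 at 1 week. Its longest cluster 5 (chr18:75528261-75529106, 80 positions) read 13.25% in the UUO sham, 12.21% and 13.68% in UUO and 12.63% and 12.93% in UUO 5AZA, a difference of -0.17 points with 5AZA (SE 0.60). Over the whole gene 10 of 11 clusters were higher in UUO than in the sham, as were 53241 of 93019 in the series. Both UUO libraries were above the sham in 7 of 11 (63.6%, against 42.2% of all clusters), with 1 of the 11 at an unadjusted p below 0.05 (8.19% of all clusters).

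Smad7 cluster 9 (chr18:75535565-75535725) read 62.04% in the UUO sham, 69.35% and 69.15% in UUO and 48.92% and 60.0% in UUO 5AZA, a difference of -14.79 points with 5AZA (SE 5.57, unadjusted p = 0.0261). In the ischemia series it read 51.57% (sham), 56.77% (1 week) and 56.68% (1 month), and the UUO sham lay 10.47 points above the ischemia sham, with a difference of -6.65 points when positions were weighted equally. Cluster 10 (chr18:75539035-75539182) read 50.79% in the UUO sham, 64.80% and 57.52% in UUO and 44.14% and 55.61% in UUO 5AZA, and both differences, 10.37 and -11.28 points, had unadjusted p-values of 0.0836 and 0.0182. Cluster 11 gave -12.23 points with 5AZA (unadjusted p = 0.0313), cluster 7 gave 9.47 with obstruction (unadjusted p = 0.0408) and 5.44 at 1 month, and cluster 14 gave 5.58 at 1 week. The obstruction effect exceeded the 1 week effect by 5.91 points in cluster 7 and 5.38 in cluster 10, and cluster 11 differed by 4.05 points between the shams. Cluster 1 (chr18:75522413-75522618), on the far side of the dense stretch, read 88.42% in the UUO sham, 89.22% and 87.82% in UUO and 83.53% and 75.83% in UUO 5AZA (-8.84 points, SE 2.54, unadjusted p = 0.00371). In cluster 1 the values differed more between the 5AZA libraries than between UUO and its sham.

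In Rasal1, the Ras inhibitor, the dense cluster 3 with its 54 positions and 3292 to 5294 reads per library gave the narrowest bounds of this gene. It read 19.63% in the UUO sham, 20.40% and 20.18% in UUO, 19.59% and 20.18% in UUO 5AZA, 19.13% in the ischemia sham, 18.34% at 1 week and 19.52% at 1 month. The obstruction difference was 0.67 points (SE 0.87), the 5AZA difference -0.40 (SE 0.73), and those at 1 week and 1 month -0.78 (SE 0.93) and 0.39 (SE 0.95). Edge positions held 54.9% to 64.2% of the reads behind these levels. Over positions inside fragments the differences were -0.46 points with obstruction (SE 0.73) and 0.45 with 5AZA (SE 0.62). None of the 12 tested Rasal1 clusters differed by 10 points with obstruction, and 1 had an unadjusted p below 0.05, against 8.19% of all. This was cluster 10 (chr5:121116318-121116467, 8 positions), at 30.46% in the UUO sham, 37.11% and 36.73% in UUO and 29.77% and 29.23% in UUO 5AZA. The difference was 6.46 points with obstruction (SE 2.39, unadjusted p = 0.0204) and -7.43 with 5AZA (SE 2.24, unadjusted p = 0.0069), and the UUO libraries were the highest of the 8. The obstruction effect exceeded the 1 week effect by 8.93 points there (unadjusted p = 0.0324) and by 8.10 in cluster 6.

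The largest 5AZA difference of Rasal1 was that of cluster 7 (chr5:121112033-121112251), -13.08 points (SE 4.37, unadjusted p = 0.0729), between 81.48% and 72.38% in UUO and 58.82% and 68.89% in UUO 5AZA. Cluster 5 followed with -7.75 points. In cluster 14, of 3 edge positions, the shams differed by 11.75 points and the reperfusion libraries from their sham by 6.97 and 9.0 points, while cluster 6 gave -11.33 points at 1 month and -6.44 at 1 week and cluster 15 gave 6.08 with obstruction. Cluster 12 differed by 5.38 points between the shams.

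With obstruction and with 5AZA, mean levels over all kept positions, each weighted equally, moved in the same direction in the 4 genes as over all positions of the series. The UUO means exceeded the sham by 1.24 points in Tgfb1, 0.70 in Smad3, 1.64 in Smad7 and 1.33 in Rasal1, against 0.86 over all 976938 positions. With 5AZA the differences were -1.99, -3.67, -1.71 and -2.46 points, against -2.07. With reads summed instead, the obstruction differences turned to -3.52, -5.63, -3.84 and -0.48 points, against -1.82 over all positions, and the 5AZA differences were -0.19, 1.10, 2.08 and -1.89, against 0.85. Inside fragments Tgfb1 moved more, with 15.32% in the UUO sham, 19.84% and 18.65% in UUO and 14.52% and 15.24% in UUO 5AZA, and with 11.32% in the ischemia sham, 13.01% at 1 week and 17.00% at 1 month. Its obstruction difference there was 3.93 points and its 5AZA difference -4.37, against 0.77 and -1.96 over all inner positions. These means have no test, and cluster 6 supplied 15 of the 45 inner positions of Tgfb1.

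The rest of the pathway was described from promoters that could be placed in the same way. Of 54 other genes of TGF-beta and BMP signalling, 36 were in the promoter table, 29 were placed and 26 had a promoter with enough measured positions outside MspI sites. The placed promoter of Bmp4 was left out for having fewer than 3 such positions. Its 2, both at fragment edges, read 37.57% and 36.03% over the reads of all 8 libraries. Of the 31 promoters of the 26 genes, some of which overlap, 30 were below 10% in every library. The exception was Tgfbr2, the type II receptor that binds the ligand first, which read 15.0% in the UUO sham, 8.85% and 16.09% in UUO and 6.60% and 14.74% in UUO 5AZA over 3 positions, with the pairs overlapping. Of the 29 clusters at the placed promoters, that of Bmp4 included, 0 were called in any of the 6 comparisons. At an unadjusted p below 0.05 there were 5 with obstruction (8.19% of all clusters in the series), 1 with 5AZA (25.3%), 0 at 1 week (4.22%) and 1 at 1 month (4.85%). Between the 2 shams there were also 5 (5.77%), and 3 in the contrast of the obstruction and 1 week effects (6.18%). Over all positions of these clusters the differences ran from -19.18 to 3.76 points with obstruction and from -2.36 to 11.65 with 5AZA. Among 12 other genes for Ras GTPase-activating proteins or proteins linked to them, 7 were measured, including Nf1, which encodes neurofibromin, and Rasa1. All 8 of their promoters were below 10% in every library (highest 8.57%), and 0 of 8 clusters were called. At an unadjusted p below 0.05 there was 1 with obstruction, 0 with 5AZA, 1 between the shams and 1 in the contrast of effects.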

How the data were processed

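RRBS measured CpG methylation in 8 kidney libraries of 6 groups. The authors deposited, for each CpG position, a count of reads and a count of methylated reads, not normalized, and a methylation fraction, which equalled the ratio of both counts within 0.0005. Bowtie and mm9 are named in the submitters' processing notes, and for the caller and any filter nothing is given in the sources used here. Fragments came from MspI digestion and were end-repaired with methylated dCTP, per the labels' protocols.

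Reads were summed per cluster and fitted with a quasi-binomial logistic model of 6 group means over all 8 libraries (Python 3.11.15, numpy 2.4.6, pandas 2.3.3, scipy 1.17.1). The dispersion was moderated with limma 3.58.1 in R 4.3.3 (2 residual degrees of freedom, prior dispersion 1.368 with 9.551 degrees of freedom, not below 1). Two-sided F tests were adjusted by Benjamini-Hochberg over 93019 clusters. SEs of differences use the same dispersion and the reads summed per group, whereas the differences are between means of library levels. The script was tested on simulated data.

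Members and gene lists were chosen with earlier results of these data known. Clusters are named at a placed promoter, with the most positions, among the 2 largest differences of a gene in a comparison, or when called. Some of them are given by their differences only, without the level of each library. Tgfb1 cluster 2 was named outside these rules, beside cluster 1. Smad3 clusters 14 and 17 and Smad7 clusters 1 and 13 were named after their values were seen, as were the positions above 10% in Rasal1. The dense stretches (clusters of at least 8 positions, below 10% inside fragments), the split at a mean of 10% and the rule for edges with a neighbour missing on 1 side were chosen after seeing the data. So was the promoter placement, which required at least 8 covered positions on a CG, 0 off it, and a lead of 3 over any other offset. The planned version, limited to kept positions, placed neither member, and the 19 promoters it placed stayed where they were. Promoter sequences are from RefSeq on GRCm38.p6, and 2 of the 4 genes matched. That build differs from mm9, so clusters are not assigned to exons or introns.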

Additional observations from a re-analysis of the deposited data

How the results depend on the processing

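The 6 counts of called clusters among the 4 genes, each 0, stayed 0 under gaps of 100 or 500 bp, 20 reads per position, edgeR 4.0.16 and limma with a pseudocount of 1. With 5AZA the count was 2 with fragment edges left out (1.16% of all clusters called), 3 with a 5-point minimum and 2 with a replicate block. Leaving 1 library out leaves a group with 1 library, so only differences are given. Without UUO 2 the 5AZA differences of Tgfb1 clusters 3 and 4 were 13.60 and 10.38 points. Without UUO 5AZA 1 those of Smad3 cluster 21 and Smad7 cluster 1 were -11.21 and -12.69 points. In each case the library left out was the one nearer to the mean of the other group, so the difference grew. UUO 5AZA 1 read 88.07% in Smad3 cluster 21 and 83.53% in Smad7 cluster 1, against 83.33% and 75.83% in UUO 5AZA 2. For obstruction the count was 2 with the replicate block, Tgfb1 clusters 3 and 4, and the block gave 2 for the contrast of both injury effects. The block rests on shared sample numbers only: same-numbered libraries deviated together with a correlation of 0.055 over all clusters and 0.136 over these. Over all clusters and alternatives the counts ranged from 0 to 2809 with 5AZA and 0 to 528 with obstruction. Apart from the fit without edges, the share of all clusters called in the same setting is not given. The counts among the 4 genes can therefore not be read as more or fewer than elsewhere. Restricting the fit to the groups compared was not run for the comparisons of 2 single libraries, which leave no residual degrees of freedom.

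Mean levels depended on the weighting. At 20 reads, with edges left out and with reads summed, the obstruction differences were 1.83, 3.93 and -3.52 points in Tgfb1, 0.19, 1.74 and -5.63 in Smad3 and 1.21, 0.27 and -3.84 in Smad7, and -0.48 with reads summed in Rasal1. The 5AZA differences were -2.92, -4.37 and -0.19 in Tgfb1, -2.48, -4.59 and 1.10 in Smad3 and -1.36, -0.21 and 2.08 in Smad7, and in Rasal1 -1.71 at 20 reads and -1.89 with reads summed. Single clusters were followed for 48 pairs of a cluster and a comparison, the 2 largest differences of each gene in each comparison. None was called in the main fit, so a value could only stay uncalled or newly pass. Sign changes outside this set were not counted, such as Tgfb1 cluster 3 with obstruction (-10.98 points, 1.0 inside fragments). Of 627 values under alternatives, 607 kept direction and side of the threshold, 9 newly passed it and 11 changed sign. Those were, for Tgfb1 cluster 3, the 1 week, sham and contrast differences at 20 reads (-4.82, -7.00 and 6.71) and with equal weights (-0.84, -0.42 and 0.03), its 1 week and contrast differences without edges (-0.53 and 1.53), Tgfb1 cluster 4 without edges with obstruction and 5AZA (0.09 and -0.40), and Smad7 cluster 9 between shams with equal weights (-6.65). The cause was not tested.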
